A study of Mus musculus with 4 samples.

Results

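The regions described here, named sites below, are 3894 peaks of topoisomerase IIβ (TOP2B) in mouse thymocytes. They were called with 1 of 2 antibodies and lie outside protein-coding genes, near but not at a protein-coding start of the annotation used. They were chosen by the peak calls of both libraries and by position. They are the rows of the Santa Cruz peak list that share no base with any row of the Novus peak list, whose centre lies outside every protein-coding gene, and whose centre is more than 1 kb and at most 50 kb from the nearest start of a protein-coding transcript in GENCODE M1 (mouse build mm9). They made up 21.9% of the 17754 Santa Cruz peaks (exact Clopper-Pearson 95% interval 21.3% to 22.5%) and 23.2% of the 16751 Santa Cruz peaks without a Novus partner. The lack of a Novus partner was common to nearly the whole list, since 94.4% of all Santa Cruz peaks shared no base with a Novus peak. Among the 4171 Santa Cruz peaks of the same position class, 277 (6.64%) were shared with Novus and were therefore left out. For higher confidence, the paper counted as TOP2B peaks only those called with both antibodies. The sites are outside that set, and TOP2B binding at them was not tested in another way.

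Thymocytes were isolated from the thymus of wild-type C57BL/6 mice of 4 to 6 weeks of age, for which no treatment is named, fixed with formaldehyde, and profiled by ChIPseq. Of the 4 libraries of the series, the 2 TOP2B libraries were used, one made with the Santa Cruz antibody and one with the Novus Biologicals antibody. The TOP2A and IgG libraries, of the same cells, were not analysed here as lists, and the IgG library entered only through the authors' peak calling against it. With 1 library for each antibody there is no replicate error, and all intervals cover counting over positions only. The lists give positions without heights or read numbers, so the depth behind a peak is unknown, and whole thymus holds thymocytes of several stages, which these positions cannot separate. No expression was measured in the files used, so the cell type could not be checked by marker levels.

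TOP2B is the main type II topoisomerase of non-dividing cells. It relieves twists and tangles of DNA by opening a double strand, passing another duplex through the gap and closing it again. It is known to sit at active promoters, at enhancers and at the anchors of chromatin loops, where CTCF, a zinc finger protein that binds one long and directional motif, stops the ring-shaped cohesin complex. Sequence between genes and within reach of a start holds many of the enhancers and boundaries that act on that gene.

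Sequence was not used to choose the sites. Among the motifs searched, the one that stood out most from the surrounding sequence was the CTCF core, a stretch of 12 letters. With up to 1 mismatch it lay within 250 bp of the centre in 21.7% of the sites, so most sites did not share it. The following 3 sites, selected after the values were seen, have a core without a mismatch closest to the centre of the peak. The core is in capitals, and each sequence of 187 bases is the called peak on the plus strand of mm9, named by the nearest protein-coding gene. The cores near Xbp1 and Dapp1 read on the plus strand and that near Lrrc8d on the minus strand.
Xbp1, chr11:5385353-5385539: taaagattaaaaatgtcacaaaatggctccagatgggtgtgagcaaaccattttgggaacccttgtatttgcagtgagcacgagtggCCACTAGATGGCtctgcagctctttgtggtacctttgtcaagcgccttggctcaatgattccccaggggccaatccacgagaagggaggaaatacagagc
Dapp1, chr3:137654273-137654459: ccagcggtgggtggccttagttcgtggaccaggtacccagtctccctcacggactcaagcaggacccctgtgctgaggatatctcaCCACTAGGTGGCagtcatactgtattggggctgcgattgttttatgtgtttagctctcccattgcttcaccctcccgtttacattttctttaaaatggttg
Lrrc8d, chr5:106083813-106083999: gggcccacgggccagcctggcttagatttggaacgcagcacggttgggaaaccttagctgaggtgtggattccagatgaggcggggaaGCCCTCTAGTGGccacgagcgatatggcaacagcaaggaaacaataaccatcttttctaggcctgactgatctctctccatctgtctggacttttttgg

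The next pair belongs to genes of T-cell development. The site near Zap70, which encodes a kinase of the T-cell receptor, lay 5.85 kb from the nearest start, and the site near Myb, which encodes a transcription factor of blood progenitors and thymocytes, lay 6.73 kb from it. Both hold a core with 1 mismatch inside the called peak, again in capitals, and they were also picked after their values had been seen.
Zap70, chr1:36841608-36841794: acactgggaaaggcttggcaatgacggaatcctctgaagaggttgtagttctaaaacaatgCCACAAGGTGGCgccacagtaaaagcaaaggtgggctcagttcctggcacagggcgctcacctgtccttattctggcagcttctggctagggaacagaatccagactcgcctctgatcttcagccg
Myb, chr10:20887429-20887615: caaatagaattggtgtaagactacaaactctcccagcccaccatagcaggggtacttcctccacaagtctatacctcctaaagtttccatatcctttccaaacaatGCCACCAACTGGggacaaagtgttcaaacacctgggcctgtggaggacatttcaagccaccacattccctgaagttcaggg

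In contrast, most sites had no core. The first 3 sites of the stretch of 100 kb that held the most of them, between Katnal1 and Hmgb1, show this other kind. Capitals mark an E-box (CAGCTG or CAGGTG), the site type of the E proteins that drive T-cell development, and the first of these sites has none of the 11 short motifs searched.
Katnal1, chr5:149818124-149818310: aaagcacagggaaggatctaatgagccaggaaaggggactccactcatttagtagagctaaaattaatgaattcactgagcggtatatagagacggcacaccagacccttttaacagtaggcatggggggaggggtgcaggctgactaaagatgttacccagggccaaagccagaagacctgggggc
Katnal1, chr5:149826111-149826297: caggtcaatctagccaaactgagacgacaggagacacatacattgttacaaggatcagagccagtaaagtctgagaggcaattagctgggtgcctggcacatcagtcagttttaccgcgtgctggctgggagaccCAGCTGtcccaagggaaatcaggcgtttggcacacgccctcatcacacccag
Hmgb1, chr5:149838131-149838317: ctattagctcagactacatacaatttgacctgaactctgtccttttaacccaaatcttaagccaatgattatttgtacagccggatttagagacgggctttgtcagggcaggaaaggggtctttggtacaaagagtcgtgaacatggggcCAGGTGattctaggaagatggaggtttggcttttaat

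Given these examples, the frequency of the CTCF core was measured over all sites. A core with up to 1 mismatch lay within 250 bp of the centre in 844 of 3894 sites (21.7%, 20.4% to 23.0%). Among all 2914231 windows of 187 bp that meet the same position rule, 5.04% had one, so the sites held it 4.30 times as often. A core without a mismatch was found at 271 sites (6.96%, 6.18% to 7.80%), against 0.351% of the windows, a ratio of 19.8. Inside the called peak itself, 12.3% of the sites and 1.85% of the windows had a core with up to 1 mismatch.

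The share with a core was higher in the sites than in the other Santa Cruz-only peaks and lower than in peaks of the same position class that the Novus antibody also called. It was 9.35% in Santa Cruz-only peaks over 50 kb from a start, 12.3 percentage points lower (Newcombe 95% interval of the difference 10.7 to 14.0). The sequence itself differed in the same direction, since 2.76% of all windows over 50 kb from a start had a core, against 5.04% of those of the sites' position class. It was 9.93% at promoters, within 1 kb of a start, a difference of 11.7 points (9.96 to 13.5), and 14.7% inside genes, a difference of 7.02 points (5.51 to 8.56). Peaks of the same position class found by the Novus antibody alone had a core in 32.8% of 600 cases, which put the sites 11.2 points below them (difference -11.2, -15.2 to -7.29). The 277 Santa Cruz peaks shared with Novus had a core in 53.1% (difference -31.4 points, -37.3 to -25.4). For cores without a mismatch the sites, at 6.96%, again lay below the shared peaks (20.9%) and those of Novus alone (11.8%) and above the Santa Cruz-only peaks inside genes (3.97%), over 50 kb from a start (2.08%) and at promoters (1.36%). Windows over 50 kb from a start had such a core in 0.137%, against 0.351% of those of the sites' position class. The peaks over 50 kb from a start thus also lay above their own sequence. A core share above the surroundings was therefore not particular to the sites. For promoters and genes, no share of windows is given.

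**Figure D1:**
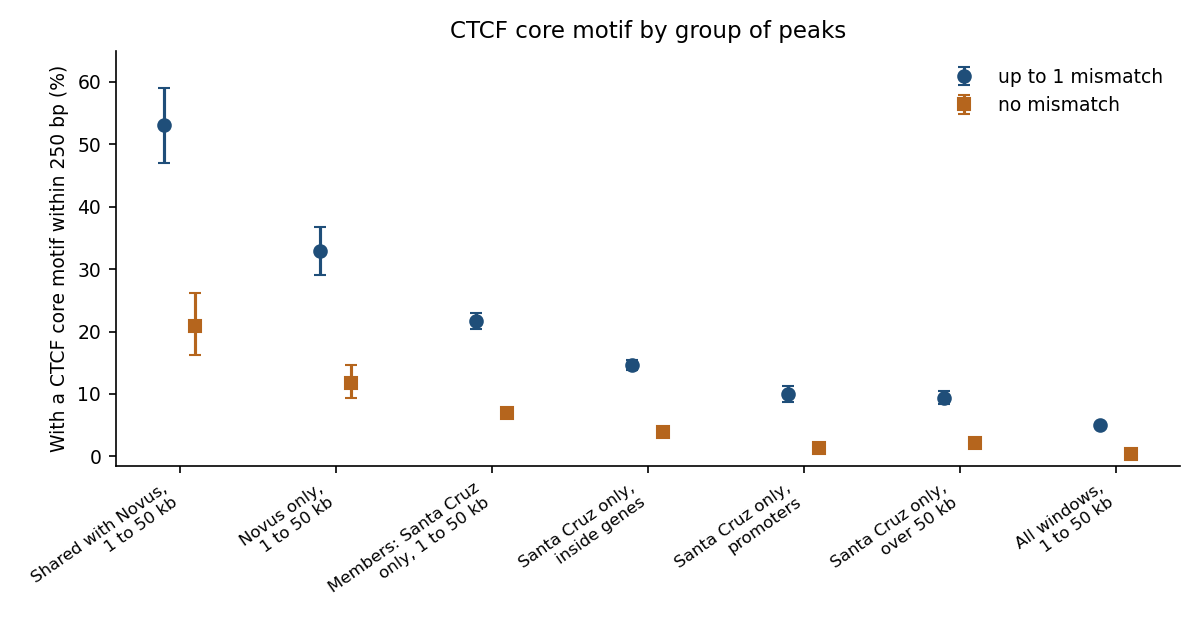
Share of peaks with a CTCF core motif within 250 bp of the centre (vertical axis, percent) for the 3894 sites ("Members") and 6 other groups, with up to 1 mismatch (circles) and without one (squares). Bars are exact 95% intervals over positions and are narrower than the symbol where not seen. The sites, at 21.7%, sit below the peaks shared with Novus at 53.1% and above the windows at 5.04%.

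Cores were concentrated at the middle of the peaks. Their median distance from the centre was 76 bp, 291 of the 844 (34.5%) lay within 50 bp, and 68 (8.06%) lay between 200 and 250 bp away. Where a site held several cores of equal match, the one closest to the centre was taken, which favours short distances. Counted without that choice, sites had a core 6.65 times as often as windows inside the peak and 4.30 times within 250 bp. There was no preferred direction at this number of sites: 46.9% of cores read on the plus strand (43.5% to 50.4%) and 47.6% read towards the nearest start (44.2% to 51.1%).

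**Figure D2:**
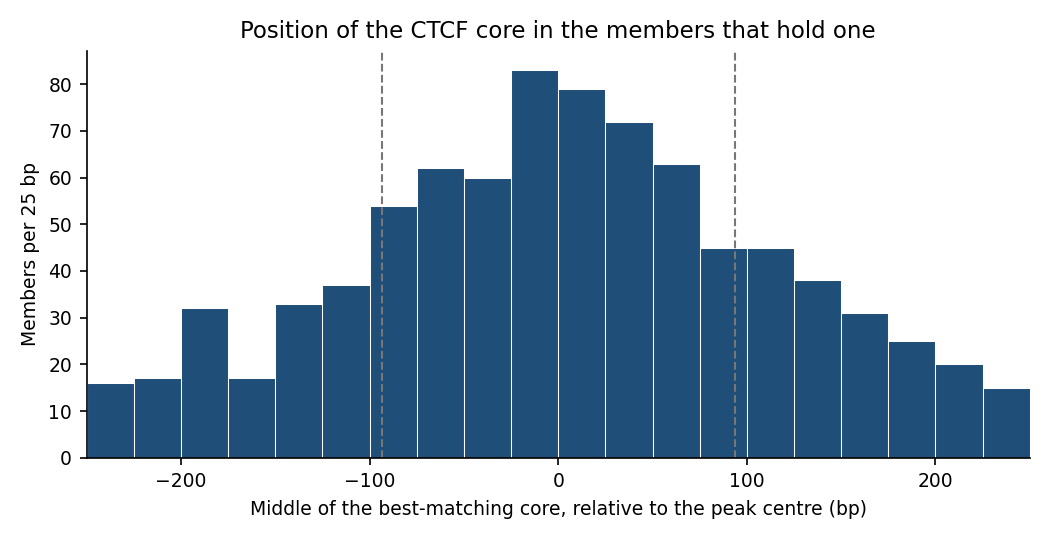
Position of the middle of the best-matching CTCF core relative to the peak centre (horizontal axis, bp, bins of 25 bp) in the 844 sites that hold one (vertical axis, number of sites). A core without a mismatch was preferred, and among equal matches the one closest to the centre. Dashed lines mark the edges of the called peak. Counts are highest in the bins beside the centre, with 83 and 79 sites, and fall to 16 and 15 at the outermost bins.

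The sites were richer in G and C than the sequence they lie in. Their median GC content was 47.6% (quartiles 43.3% and 51.9%) against 42.8% over the windows, 45.5% in Santa Cruz-only peaks over 50 kb from a start and 59.1% at promoters. The peaks over 50 kb from a start also lay above their own sequence, whose windows had a median of 39.6%, so a GC content above the surroundings was not particular to the sites. Of the sites, 743 (19.1%) had no CpG at all, compared with 2.27% of the Santa Cruz-only promoter peaks. GC content moved with the core, but the difference from the windows was present in each band of it. Below 40% GC, 16.2% of the sites and 3.63% of the windows had a core, and at 55% GC or more 29.9% of the sites and 7.94% of the windows had one.

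Short motifs of other factors differed less from the sequence around them. In the called peak, on both strands, the E-box CAGGTG was found in 16.3% of the sites and 12.01% of the windows, and the E-box CAGCTG in 11.4% and 7.10%. The ETS core CAGGAAG, bound by the ETS family that is active in T cells, was found in 9.63% and 6.15%, and the longer form CCGGAAG in 1.31% and 0.559%. The heptamer CACAGTG of the recombination signals that flank antigen receptor segments was found in 6.27% and 4.60%. The GC box GGGCGG, common at promoters, was present in 4.80% and 1.85%. The RUNX motif TGTGGTT was found in 5.19% (4.51% to 5.93%) against 4.80%, the TCF/LEF motif CTTTGAA in 4.55% (3.91% to 5.25%) against 4.73%, and the AP-1 motif TGANTCA in 6.34% (5.60% to 7.15%) against 5.53%. The GATA motif AGATAA was rarer in the sites, at 9.09% against 11.7%, and so was CCAAT, at 20.5% against 27.9%. The interval of RUNX and of TCF/LEF held the value of the windows. Santa Cruz-only peaks inside genes had CAGGTG in 16.9%, CAGCTG in 11.8%, the ETS core in 10.9% and the heptamer in 7.36%. Those over 50 kb from a start had CAGGTG in 14.3%, against 9.79% of their own windows. The higher shares of these motifs were thus not particular to the sites.

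Some of these differences narrowed among sequences of like GC content. For CAGGTG, the sites and windows had 16.4% (14.3% to 18.6%) and 15.1% between 45% and 50% GC, and 23.2% (19.5% to 27.3%) and 23.1% at 55% or more. The ETS core kept a wider gap in the band from 45% to 50%, with 11.3% (9.58% to 13.2%) and 7.90%, but not at 55% or more, with 12.04% (9.23% to 15.4%) and 10.99%. The GC box differed most at 55% GC or more, where 19.8% of the sites (16.3% to 23.7%) and 11.6% of the windows had it. The heptamer CACAGTG differed between 45% and 50% GC, with 7.57% (6.14% to 9.21%) and 5.68%. In each other band its interval held the value of the windows, as at 55% or more, with 6.88% (4.75% to 9.58%) and 6.64%.

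Position was examined next, with the number of sites set against the amount of sequence that could hold one. The rule admits 545 Mb of sequence, 21.3% of that on chromosomes 1 to 19 and X, and the sites had a density of 7.15 per Mb (exact Poisson 95% interval 6.92 to 7.37). Santa Cruz-only peaks had 3.17 per Mb over 50 kb from a start, 7.63 inside genes and 41.2 at promoters. Within the admitted sequence, the density was 8.76 per Mb (7.73 to 9.89) between 1 and 2.5 kb from a start and 5.90 (5.32 to 6.51) between 40 and 50 kb. The median distance was 15.6 kb (quartiles 7.09 and 28.6 kb), and 34.5% of the sites (33.0% to 36.0%) lay within 10 kb, against 30.1% of the windows. Novus peaks in the same sequence varied between 1.38 and 1.77 per Mb over the same distances.

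The share with a CTCF core varied with distance, with its highest value close to but not next to the start. It was 18.8% (14.3% to 24.1%) between 1 and 2.5 kb, 28.3% (23.8% to 33.1%) between 2.5 and 5 kb, 24.8% (22.1% to 27.5%) between 10 and 20 kb and 16.2% (12.7% to 20.3%) between 40 and 50 kb. Windows fell from 5.67% to 4.12% between these last distances, from 2.5 kb outwards. Thus the share of the sites was above that of the windows at each distance.

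**Figure D3:**
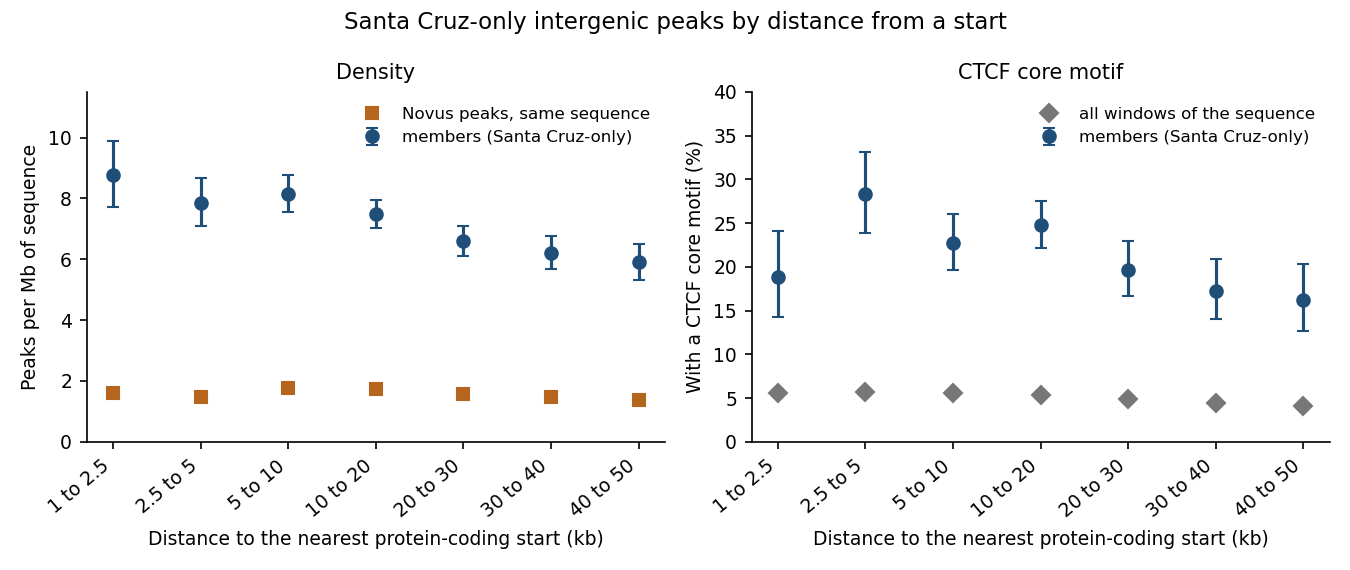
Left, density of the 3894 sites (circles) and of Novus peaks (squares) per Mb of the sequence that meets the position rule, by distance to the nearest protein-coding start in kb. Right, share of the sites (circles) and of all windows (diamonds) with a CTCF core, in percent. Bars are 95% intervals over positions. Density falls from 8.76 to 5.90 per Mb, and the core share is highest at 28.3% between 2.5 and 5 kb.

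Orientation was compared in the same way. Of the sites, 2725 (70.0%, 68.5% to 71.4%) were upstream of the nearest start, against 69.1% of the windows. By distance, the share upstream was 93.5% (89.7% to 96.1%) against 86.5% of the windows between 1 and 2.5 kb, and 61.1% (57.3% to 64.9%) against 65.2% between 20 and 30 kb, while at the other distances the interval held the value of the windows. Their flanking protein-coding genes were in tandem in 54.8%, divergent in 29.9% and convergent in 15.3%, and the windows had 54.6%, 29.7% and 15.4%. Sites with a core were less often upstream, at 65.8%, than those without, at 71.1%. This difference was chosen after the values were seen and is given as a description.

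The limits of the rule cut through a continuum of positions. The site closest to the inner limit lay 1003 bp upstream of Lbh, and the Santa Cruz-only peak just outside it lay 992 bp upstream of Guca2a. At the outer limit, a site was 49934 bp from Chst14, and a peak 50022 bp upstream of Themis was just out. Themis, which encodes an adaptor needed for thymocyte selection, was the nearest gene of a site all the same, 48.9 kb upstream.

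The distance to the nearest Novus peak, whose overlap the rule used, is given as a description. Its median was 113 kb, 346 sites (8.89%) had a Novus peak within 10 kb, 91 (2.34%) within 1 kb and 46 within the width of a peak, 187 bp. The 3 smallest gaps were 2 bp near 4932442E05Rik and 4 bp near both 1810063B07Rik and Itgb5, an integrin gene. Just across the threshold, Santa Cruz peaks near Gm6772, Map3k1 and Slc35e3 shared 2, 4 and 7 bp with a Novus peak and were not counted. Within 1 kb of a Novus peak lay 4.03% of the sites with a CTCF core and 1.87% of those without.

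To see how the sites lie among themselves, their neighbours in the Santa Cruz list were counted. Another Santa Cruz peak was centred within 10 kb of 1051 sites (27.0%, 25.6% to 28.4%). The share was 16.1% for Santa Cruz-only peaks over 50 kb from a start (14.8% to 17.4%), 25.8% inside genes (24.7% to 26.8%) and 32.6% at promoters (30.7% to 34.5%). For 714 sites the neighbour was another of the sites, for 182 a promoter peak, for 133 a peak inside a gene and for 96 a peak shared with Novus, and a site can have several kinds. Linked at 10 kb, 3180 sites stood alone, 272 runs held 2 of them, 52 runs held 3, 1 run held 4 and 2 runs held 5.

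The run of 4 lay near Mab21l3. One run of 5 spanned 19.0 kb upstream of Ctla4, which encodes an inhibitory receptor of T cells, between 29.1 and 48.1 kb from its start. Its outermost site was 129 bp from a Novus peak and had a CTCF core, and the other 4 had none. The other run of 5 spanned 13.2 kb upstream of Dapl1, with its closest site 3.23 kb from the start. The nearest Novus peak was 1282 kb away from it. Both genes thus had a row of Santa Cruz sites upstream, with Novus peaks close by at Ctla4 and far away at Dapl1.

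The stretch of 100 kb with the most sites, chr5:149800001-149900000, held 9 of them. It covers Hmgb1, which encodes an abundant DNA-bending chromatin protein, and the upstream side of Katnal1, whose product belongs to a family of microtubule-severing enzymes. The 7 sites nearest to Hmgb1 lay 5.69, 7.07, 8.13 and 24.7 kb downstream and 12.3, 27.0 and 34.8 kb upstream of its start, so they flanked the gene on both sides. Only the last of them had a CTCF core, and Novus peaks were at least 60.5 kb away. Hmgb1 also had a Santa Cruz peak at its start, and no Novus peak there.

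Over the genome, 3118 of 19409 protein-coding genes with such sequence (16.1%) were the nearest gene of at least 1 site. Of these, 2529 had 1 site, 446 had 2, 112 had 3 and 31 had 4 or more. Hmgb1 had the most, with 7. Ctla4, Dapl1 and Alox5ap, which encodes a membrane protein of leukotriene synthesis, had 6 each. Rd3, a gene known from the retina, Spesp1, a sperm gene, Odc1, which encodes the first enzyme of polyamine synthesis, and Egln3, which encodes an oxygen-dependent prolyl hydroxylase, had 5 each. Nmur1, which encodes a neuropeptide receptor, and Dtl, which encodes a substrate receptor of a ubiquitin ligase, had 4, as did 23 genes in all, from which these were taken by genome order.

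These genes differed in how their sites were placed. The 6 sites of Dapl1 were all upstream, from 3.23 to 46.2 kb, and the 4 of Dtl were all downstream, from 5.94 to 42.1 kb. Odc1 had 2 upstream and 3 downstream, 2 of the 5 with a core. Egln3 had a site at 1.52 kb and another at 48.3 kb. The sites of Alox5ap ranged from 12.2 to 39.9 kb, and one lay 1.33 kb from a Novus peak. Among the 8 genes with 5 or more sites, Hmgb1 had a Santa Cruz peak at the start, and none had a Novus peak there.

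The starts of the nearest genes were then examined with the Novus list, which the rule used only at the sites themselves. Of the 3118 nearest genes, 6.51% had a Novus peak within 1 kb of a start, against 4.59% of the 16291 other genes (difference 1.93 points, 1.05 to 2.90). For Santa Cruz peaks, which come from the same library as the sites, the shares were 15.7% and 10.9% (difference 4.78 points, 3.45 to 6.17). For genes with 1, 2 and 3 or more sites, the Novus share was 6.60%, 4.93% (3.12% to 7.37%) and 9.79% (5.46% to 15.9%), with no steady rise, and the Santa Cruz share was 14.8%, 18.6% and 21.7%. The groups also differ in how much flanking sequence they have, with a median of 38.2 kb per gene for the nearest genes and 18.3 kb for the others, and the part of this in the shares was not tested.

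Lists of genes with a role in T cells and in other tissues were then compared by the sites near them. Of 61 genes in lists of T-lineage transcription factors, T-cell receptor components and signalling, survival and homing receptors, and V(D)J recombination, 30 (49.2%, 36.1% to 62.3%) were nearest to at least 1 site, against 16.1% of all genes. In lists of B-cell, myeloid, erythroid and other tissue genes, 4 of 29 (13.8%, 3.89% to 31.7%) were, namely Ebf1, Itgam, Alb and Myod1. Counted per Mb of flanking sequence, the T-cell genes had 24.7 sites (18.4 to 32.4), the other lists 5.01 (1.36 to 12.8) and all genes 7.15. The T-cell lists include Bcl11b, Notch1, Cxcr4 and recombinase genes, loci that the study itself examined, and without these 26 of 56 genes (46.4%) were nearest to a site. Another 5 listed genes had no match in the annotation or no such sequence.

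The Novus library, called against the same IgG library, gave 5.80 peaks per Mb in the same flanking sequence of the T-cell genes (3.00 to 10.1, 12 peaks), 2.504 in the other lists (0.303 to 9.05, 2 peaks) and 1.61 over all genes. In the Novus list, too, the interval of the T-cell genes lay above the value of all genes. A higher density near these genes was thus not particular to the sites. The interval of the other lists, from 2 peaks, held the value of the T-cell genes as well as that of all genes. The single lists varied, with 10.1 Novus peaks per Mb for the T-cell receptor list (3.28 to 23.6), 1.76 for survival and homing (0.0445 to 9.79) and 17.9 for the B-cell list (2.16 to 64.5), the last from 2 peaks.

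**Figure D4:**
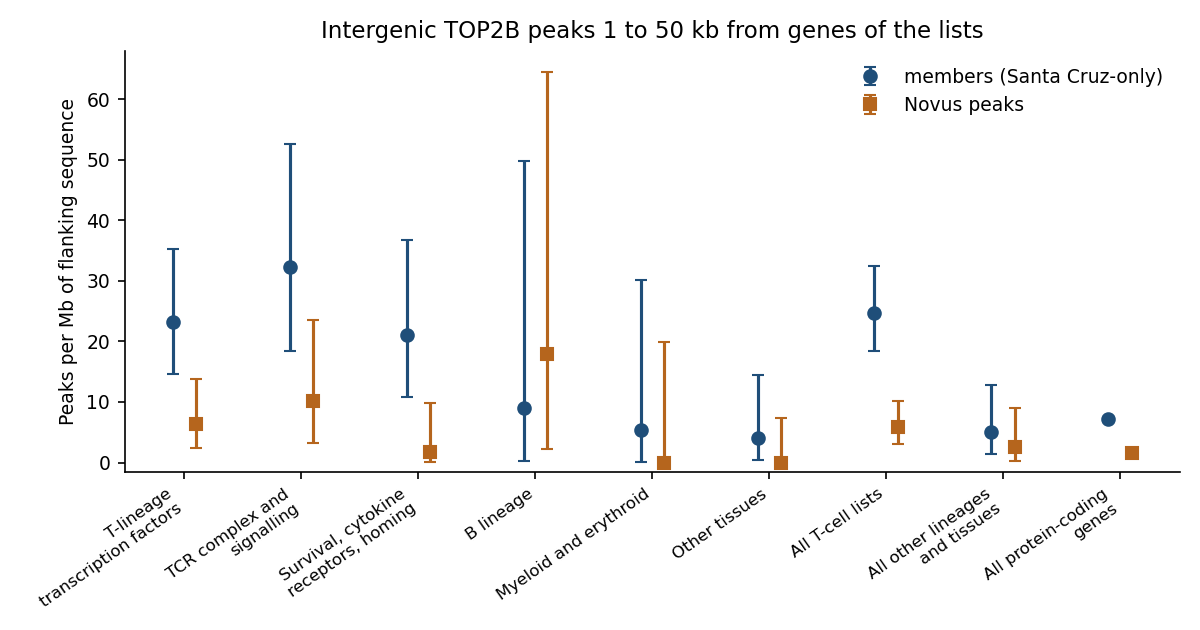
Density of the sites (circles) and of all Novus peaks of the same position class (squares) per Mb of sequence that lies outside protein-coding genes, 1 to 50 kb from a start of genes of each list, with exact Poisson 95% intervals. The T-cell lists, at 24.7 sites per Mb, sit above all protein-coding genes at 7.15, and the other lists at 5.01. The V(D)J list, with 1 site, enters only the pooled value.

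Among transcription factors, 14 of 22 were nearest to a site, with 22 sites. Ets1, which encodes an ETS factor of lymphocytes, had 4, all upstream between 20.5 and 46.2 kb, of which 2 had a CTCF core, and its closest Novus peak was 185 kb from them. Myb had 3, all upstream, at 6.73, 26.7 and 42.5 kb, and the first carries the core printed above. Runx3 had 2 upstream, at 21.8 and 48.8 kb. Notch1, which encodes the receptor that commits progenitors to the T lineage, had 2 upstream at 8.86 and 20.2 kb, and Bcl11b, a factor of T-lineage commitment, had 1 at 43.3 kb. Tcf3, which encodes the E proteins E12 and E47 of lymphocyte development, had 1 site 12.8 kb upstream with a core without a mismatch.

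Further sites of this list lay singly. Tcf7, which encodes TCF-1, had 1 at 16.0 kb, and Lef1, its relative, had 1 at 45.1 kb. Ikzf1, which encodes Ikaros, had 1 at 16.3 kb that lay 410 bp from a Novus peak. The site of Satb1, a chromatin organiser of thymocytes, lay 805 bp from one and reached over the annotated end of the gene by its edge, since only its centre had to lie outside. Id2, Id3, Tcf12 and Nfatc1 had 1, 1, 1 and 2 sites.

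In the T-cell receptor list, 10 of 21 genes were nearest to a site, with 16 sites. Ptprc, which encodes the phosphatase CD45, had 3, all upstream, at 8.34, 12.9 and 26.9 kb, and a Novus peak lay 3.34 kb from the second. Zap70, Cd8a, Lat and Lcp2 had 2 each. The sites of Cd8a, a coreceptor gene, lay 3.83 kb upstream and 6.61 kb downstream of the nearest start, on either side of the gene. Cd3e had 1 site 5.45 kb upstream and Cd247, which encodes the zeta chain, 1 at 8.19 kb. Cd2, Cd28 and Themis had 1 each, and that of Cd28 lay 35.7 kb downstream, towards Ctla4.

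Of the genes of survival, cytokine receptors and homing, 5 of 16 were nearest to a site, with 12 sites. Ccr7, a chemokine receptor gene of mature T cells, had 4, at 18.3 and 30.6 kb downstream and 11.4 and 34.2 kb upstream, the last with a core. Cxcr4, the receptor gene for the chemokine CXCL12, had 3, at 33.2 kb downstream and 13.7 and 19.7 kb upstream, with no core. S1pr1, a receptor gene that guides exit from the thymus, had 3, all downstream, at 3.90, 29.8 and 48.4 kb, the last 2.77 kb from a Novus peak. Il4ra and Cd69 had 1 each. In the V(D)J list, Dntt, which encodes terminal transferase, had 1 site 6.85 kb upstream, and of its 2 genes with such sequence the other had none. These counts rest on the starts of GENCODE M1. By RefSeq, another annotation, a further site lay within 1 kb of a coding start of Ptcra, also a gene of this list. In GENCODE M1 that site was counted to 2310039H08Rik, 8.86 kb upstream of its start.

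Motifs were also counted in the 51 sites of the T-cell lists, a number that leaves wide intervals. A CTCF core was found in 9 (17.6%, 8.40% to 30.9%), against 21.7% of all sites. The E-box CAGGTG was in 14 (27.5%, 15.9% to 41.7%), against 16.3%, and the RUNX motif in 6 (11.8%, 4.44% to 23.9%), against 5.19%. A core inside the called peak was in 3 (5.88%, 1.23% to 16.2%), against 12.3%. For each of these 4 the interval held the value of all sites, and the differences were not tested. Their median distance to the start was 18.3 kb, and 68.6% were upstream, against 70.0%.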

How the data were processed

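TOP2B binding was measured by ChIPseq (ChIPmentation, reads of 75 bp). The authors aligned them with Bowtie 1.2.0 to the build mm9. HOMER peaks, separate for the libraries, were at least 10-fold above IgG at an FDR of 1%. The deposited lists give positions in bp, and the deposited score is 0 in every row, so peaks could not be ranked and their depth is unknown. Peaks were placed by centre on mm9 and GENCODE M1, counted from 1. Windows were all adjacent stretches of 187 bp without unknown bases, classified by the same rule. The CTCF core was searched on both strands, within 250 bp of the centre and with up to 1 mismatch, and 11 short motifs in the called peak. No p-value was computed. Intervals are Clopper-Pearson, Poisson or Newcombe intervals at 95%.

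The sites, lists and alternatives were chosen with earlier results of these data known. Named were the 10 genes with most sites, T-cell list genes with 3 or more, the sites closest to Novus peaks and to the limits, and the densest 100 kb. Other genes and the printed core sequences were chosen after their values were seen. RefSeq starts were placed by matching 60 bases of a promoter table of another build. In tests on simulated data, 500 of 500 planted cores were found. Tools were scipy 1.17.1, numpy 2.4.6, numba 0.67.0, pysam 0.24.0, matplotlib 3.10.9 and Python 3.11.15.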

Additional observations from a re-analysis of the deposited data

How the results depend on the processing

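No paired analysis was possible because each antibody has 1 library and no test was run. The number of sites was between 3634 and 5031 under 8 of the 9 alternatives tried for it and 2352 with an upper limit of 20 kb, which leaves less sequence. The share with a CTCF core was 6.96% with 0 mismatches, 12.3% with the called peak as the window and 24.1% with the 20 kb limit. The share upstream was 73.5% with the 5′ ends of genes as starts and 68.3% with a lower limit of 2.5 kb. The share of nearest genes with a Santa Cruz peak at the start was 26.4% within 2.5 kb, and median GC was 46.8% over 500 bp. Another Santa Cruz peak lay within 5 kb of 13.1% and within 20 kb of 45.6% of the sites. With the 20 kb limit, 34.4% of the T-cell genes were nearest to a site, against 10.8% of all genes, and with any start within 50 kb counted, 62.3% against 29.1%. The other shares stayed inside the 95% interval of the main value. Leaving out RefSeq starts, X and the loci the study examined, and the alternatives for the gene lists, were chosen after the data were seen. No replicate could be left out. Without peak heights, weak and strong sites count alike, and a site without a Novus partner is not shown to be absent from the Novus library, whose list is shorter.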

Other observations

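The sites were spread unevenly over chromosomes. Chromosome X held 84, or 2.25 per Mb of the sequence that meets the rule (1.79 to 2.78), against 7.51 per Mb (7.27 to 7.75) on the autosomes, and the share with a CTCF core there was 9.52%. Windows had a core in 3.54% on X and 5.15% on the autosomes. Novus peaks in the same sequence had 0.374 per Mb on X and 1.70 on the autosomes. The whole Santa Cruz list, over all sequence, had 2.24 per Mb on X and 7.27 on the autosomes, so the low density on X was not particular to the sites. Among autosomes, chromosome 11 had the highest density, 11.4 per Mb (10.1 to 12.7), and chromosome 7 the lowest, 5.30 (4.64 to 6.02).

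Not all sites lay outside every annotated gene, since the rule used protein-coding genes. Of them, 231 (5.93%, 5.21% to 6.72%) were centred in another kind of gene, against 5.05% of the windows, most often a lincRNA (129 sites) or a processed transcript (86 sites). Within 1 kb of the start of such a gene lay 109 sites (2.80%, 2.30% to 3.37%), against 1.79% of the windows. Antigen receptor segments held 3 sites, at Igkv1-88, at the D segment Gm16783 and at Trav1. Promoters of RefSeq, matched by sequence, put 150 sites (3.85%) within 1 kb of a start, 42 of them of a coding transcript. The counts for segments and for RefSeq starts were not set against windows or other peaks and are given as a description.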
